A study of Homo sapiens with 18 samples.

Results

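The Krüppel-like factors (KLFs) measured here were 10 genes, KLF2, KLF3, KLF4, KLF5, KLF6, KLF7, KLF9, KLF10, KLF11 and KLF13. They were chosen by gene symbol from the 17026 endogenous gene features of the deposited table. Every feature had at least 1 read in each library, so a gene without reads in some library may be missing. KLF1, KLF8, KLF14, KLF15, KLF17 and KLF18 were absent. All 10 passed the filter on low values that left 15354 genes for testing. RNA was sequenced from BxPC-3, MiaPaCa-2 and PANC-1, established cell lines from human pancreatic ductal adenocarcinoma. Each line was kept in medium with DMSO, the solvent, or with 100 nM THZ1 for 6 h. THZ1 is a covalent inhibitor of CDK7, a kinase of the transcription machinery, and also reacts with CDK12 and CDK13. The 6 groups, each line with DMSO and with THZ1, had 3 libraries each, which the series describes as biological triplicates. All groups grew in F12 medium with serum, β-glycerophosphate and ascorbic acid. A single line stands for each tumour background, so the spread between libraries does not cover differences between tumours or between clones.

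KLFs bind GC-rich and CACCC-containing DNA through conserved zinc fingers at the carboxyl end, and share this DNA-binding domain with the SP factors. Their amino ends differ, so that some members recruit histone acetyltransferases and activate genes, while others bring in the corepressors CtBP or SIN3A with histone deacetylases. Many KLF transcripts are short-lived and respond quickly to growth factors, stress, hormones or TGF-β. In pancreatic and other epithelia, KLF4 and KLF5 are known as regulators of epithelial differentiation and proliferation.

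Levels are given as rescaled reads: the deposited values multiplied by 1 constant, so that the mean library sums to 1000000 over endogenous genes. This keeps the ratios between libraries that the authors deposited. Differences are log2 differences of these levels after adding 1, from a limma fit of all 18 libraries with p-values adjusted by Benjamini-Hochberg over all genes tested, and a gene is said to have risen or fallen when its adjusted p was under 0.05. Libraries held 6352482 to 20910423 reads, endogenous and spike-in. The shallowest, DMSO replicate 1 of PANC-1, stood apart from its group, with a residual SD of 0.52 (log2). Each of the remaining libraries had one between 0.10 and 0.31. Results on PANC-1 are therefore also given with that library left out where it changed them. The keratin gene KRT18 averaged 169, 260.3 and 212 rescaled reads with DMSO in BxPC-3, MiaPaCa-2 and PANC-1. CDH1, the epithelial cadherin, averaged 298 in BxPC-3 with DMSO but 0.179 in MiaPaCa-2 and 3.31 in PANC-1. The mesenchymal filament gene VIM averaged 12.3, 1413 and 1372 in the same groups. The scale of the libraries bears on every direction given for THZ1. The median log2 difference over all genes was 0.25 in BxPC-3, 0.19 in MiaPaCa-2 and -0.07 in PANC-1 on the deposited scale, and -0.64, -0.85 and -0.31 when libraries were scaled to equal totals of the ERCC spike-in RNAs. On the deposited scale, ERCC totals were higher with THZ1 by 1.19, 1.30 and 0.28 (log2). Endogenous totals on that scale were also higher with THZ1 in BxPC-3, at 1319130 to 1350250 against 800552 to 808905 with DMSO. In MiaPaCa-2 they were 1306990 to 1328180 against 835239 to 844038. In PANC-1 they were 835505 to 856249 with THZ1 and 773011 to 1000170 with DMSO. Exact permutation tests of the 3 ERCC differences, two-sided, gave p = 0.1, 0.1 and 0.2, and 0.1 is the smallest that 3 libraries against 3 allow. A lower level in such bulk samples can come from fewer cells or from less RNA per cell, and these cannot be told apart.

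The promoters of 3 members are shown because their values lay together or apart across BxPC-3 and MiaPaCa-2: KLF4 fell in both, KLF6 rose in both on the deposited scale, and KLF2 fell in MiaPaCa-2 while its BxPC-3 value was positive on the deposited scale and negative on the ERCC scale. The sequences are the 250 bases before the annotated start in the RefSeq promoter table (GRCh38.p14), read 5′ to 3′ on the gene's own strand. Capitals mark matches to the GC box GGGCGG, the KLF core CCACCC or the TATA motif TATAAA on either strand. The KLF4 window is chr9:107489770-107490019 on the minus strand. The KLF6 window is chr10:3785210-3785459 on the minus strand. The KLF2 window is chr19:16324576-16324825 on the plus strand.
KLF4: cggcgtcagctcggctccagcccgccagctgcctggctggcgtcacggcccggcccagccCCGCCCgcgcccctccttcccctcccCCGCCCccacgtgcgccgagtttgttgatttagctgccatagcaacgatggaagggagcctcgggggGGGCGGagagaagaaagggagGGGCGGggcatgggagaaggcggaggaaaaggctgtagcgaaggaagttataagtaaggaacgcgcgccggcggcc
KLF6: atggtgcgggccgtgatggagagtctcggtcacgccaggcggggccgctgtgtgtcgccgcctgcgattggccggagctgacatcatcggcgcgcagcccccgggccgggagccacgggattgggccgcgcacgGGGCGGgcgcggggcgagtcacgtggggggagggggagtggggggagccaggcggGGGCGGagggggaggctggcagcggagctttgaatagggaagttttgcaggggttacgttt
KLF2: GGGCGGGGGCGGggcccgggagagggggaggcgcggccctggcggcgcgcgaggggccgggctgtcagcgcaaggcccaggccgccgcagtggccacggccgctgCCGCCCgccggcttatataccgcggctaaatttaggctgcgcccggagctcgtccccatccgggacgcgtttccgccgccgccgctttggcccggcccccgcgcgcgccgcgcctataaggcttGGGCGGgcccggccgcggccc
The KLF4 window held 4 matches to GGGCGG and 69.2% G and C. The KLF6 window held 2 matches and 72.4% G and C. The KLF2 window held 4 matches, 2 of them adjoining at its far end, and 80.0% G and C. None of the 3 windows held CCACCC or TATAAA. The GC box occurred in at least 1 window of 7 of the 8 members found in the table, KLF9 being the exception. KLF7 had 4 windows and KLF5 and KLF11 had 2 each, and some windows of KLF7 and KLF5 held no GC box. Counted by single windows, the GC box occurred in 42.64% of all 35116 windows of this length. The count of members is not on the same footing as that share. CCACCC occurred in 31.26% and TATAAA in 10.72% of all windows, and the median G and C content was 58%. These matches describe letters in the reference and were not tested for binding.

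Without THZ1, the lines differed most in the activator-type members KLF2, KLF5 and KLF7. KLF5, a driver of epithelial proliferation, read 276, 263 and 258 rescaled reads in the 3 BxPC-3 libraries with DMSO. It read 2.31, 1.67 and 2.77 in MiaPaCa-2 and 2.84, 1.94 and 2.37 in PANC-1. KLF5 was thus abundant in the line with high CDH1 and low VIM and near the bottom of the measured range in the other two. Its DMSO difference from BxPC-3 was -6.37 in MiaPaCa-2 (SE 0.14, adjusted p = 8.5e-16) and -6.31 in PANC-1 (SE 0.14, adjusted p = 1.4e-15). MiaPaCa-2 and PANC-1 did not differ in KLF5 beyond their spread, by 0.06 with a 95% interval of -0.24 to 0.37.

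KLF2, best known as a flow-responsive factor of endothelial cells and of quiescent T cells, was the MiaPaCa-2 member. Its DMSO levels were 149, 142 and 142 in MiaPaCa-2, 4.42, 4.85 and 4.56 in PANC-1 and 1.66, 1.71 and 1.79 in BxPC-3. All 3 lines were separated, with MiaPaCa-2 above BxPC-3 by 5.74 (SE 0.14, adjusted p = 2.6e-15) and PANC-1 above BxPC-3 by 1.05 (SE 0.14, adjusted p = 7.1e-06). KLF7, a factor of neuronal development, showed the opposite order. It averaged 23.7 ± 1.22 in BxPC-3 (SD, n = 3) and 13.2 ± 1.63 in PANC-1, while the MiaPaCa-2 libraries with DMSO held only 9, 2 and 2 KLF7 reads. The fitted difference of MiaPaCa-2 from BxPC-3 was -4.37 (SE 0.14, adjusted p = 5.2e-14), and the added 1 makes it smaller than the ratio of the levels.

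KLF6, a widely expressed zinc finger gene known as a tumour suppressor and as an injury-responsive factor, was low in BxPC-3 and high elsewhere. It read 34.0, 36.3 and 34.4 in BxPC-3, 255, 275 and 258 in MiaPaCa-2 and 247, 203 and 202 in PANC-1. MiaPaCa-2 exceeded BxPC-3 by 2.88 (SE 0.08, adjusted p = 5.9e-15). The smaller step between PANC-1 and MiaPaCa-2, -0.28 (SE 0.08, adjusted p = 0.0045), did not pass when only these groups entered the fit (adjusted p = 0.12). KLF4, a reprogramming factor that also drives epithelial differentiation, averaged 36.1 ± 1.58 in BxPC-3, 29.8 ± 0.880 in MiaPaCa-2 and 13.7 ± 4.08 in PANC-1 (SD, n = 3). The BxPC-3 libraries all lay above the MiaPaCa-2 ones in KLF4, but the difference of -0.27 was not called (adjusted p = 0.15). It was called without PANC-1 DMSO replicate 1 (adjusted p = 0.020) and in edgeR's quasi-likelihood test (-0.50, adjusted p = 0.025), and was 0.10 on the ERCC scale. PANC-1 lay below BxPC-3 by -1.38 (SE 0.16, adjusted p = 9.8e-07).

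KLF3, the repressor that recruits CtBP, averaged 51.1 ± 3.55 in BxPC-3, 38.7 ± 2.16 in MiaPaCa-2 and 14.5 ± 3.56 in PANC-1 (SD, n = 3). PANC-1 was lower than BxPC-3 by -1.78 (SE 0.14, adjusted p = 1.4e-08), and the step from BxPC-3 to MiaPaCa-2 was -0.39 (SE 0.14, adjusted p = 0.026). That smaller step was -0.02 on the ERCC scale (adjusted p = 0.94). Among the members that bind SIN3A, KLF13, a factor first described as an activator of the chemokine gene CCL5 in T cells, averaged 123 ± 1.59 in BxPC-3, 79.5 ± 4.07 in PANC-1 and 24.0 ± 0.126 in MiaPaCa-2. All 3 pairs of lines differed in KLF13, with the widest gap at -2.31 between MiaPaCa-2 and BxPC-3 (SE 0.07, adjusted p = 5.7e-14). KLF11, a TGF-β-inducible gene, had the order PANC-1 (12.9 ± 1.82), MiaPaCa-2 (8.98 ± 1.01) and BxPC-3 (4.80 ± 0.358). The KLF11 step between PANC-1 and MiaPaCa-2 was 0.48 (adjusted p = 0.0066) on the deposited scale and 0.21 (adjusted p = 0.39) on the ERCC scale. KLF9, which glucocorticoid and thyroid hormones induce, was low in every line, at 1.61 ± 0.182 in BxPC-3, 3.85 ± 0.128 in MiaPaCa-2 and 2.97 ± 0.392 in PANC-1. KLF9 was higher in both other lines than in BxPC-3, and the MiaPaCa-2 libraries all lay above the PANC-1 ones without a call (difference -0.29, adjusted p = 0.076). That step was called without PANC-1 DMSO replicate 3 (adjusted p = 0.045) and on the ERCC scale (-0.56, adjusted p = 0.016).

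KLF10, the TGF-β-inducible early gene, was the only member without a called difference between the lines in the limma F-test over the DMSO groups (adjusted p = 0.57). Its DMSO levels were 61.6, 57.6 and 57.8 in BxPC-3, 57.9, 57.0 and 58.3 in MiaPaCa-2 and 39.8, 85.3 and 86.5 in PANC-1. The low PANC-1 value belongs to DMSO replicate 1. Without that library PANC-1 exceeded BxPC-3 by 0.54 (adjusted p = 1.5e-07) and MiaPaCa-2 by 0.57 (adjusted p = 6.7e-08). Each of the other PANC-1 DMSO differences called for a member was also called without it. The F-test called 9 of 10 members, and it called 79.1% of all genes tested. Between pairs of lines, 62.6% of all genes differed for MiaPaCa-2 and BxPC-3, 59.1% for PANC-1 and BxPC-3, and 60.8% for PANC-1 and MiaPaCa-2.

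**Figure D1:**
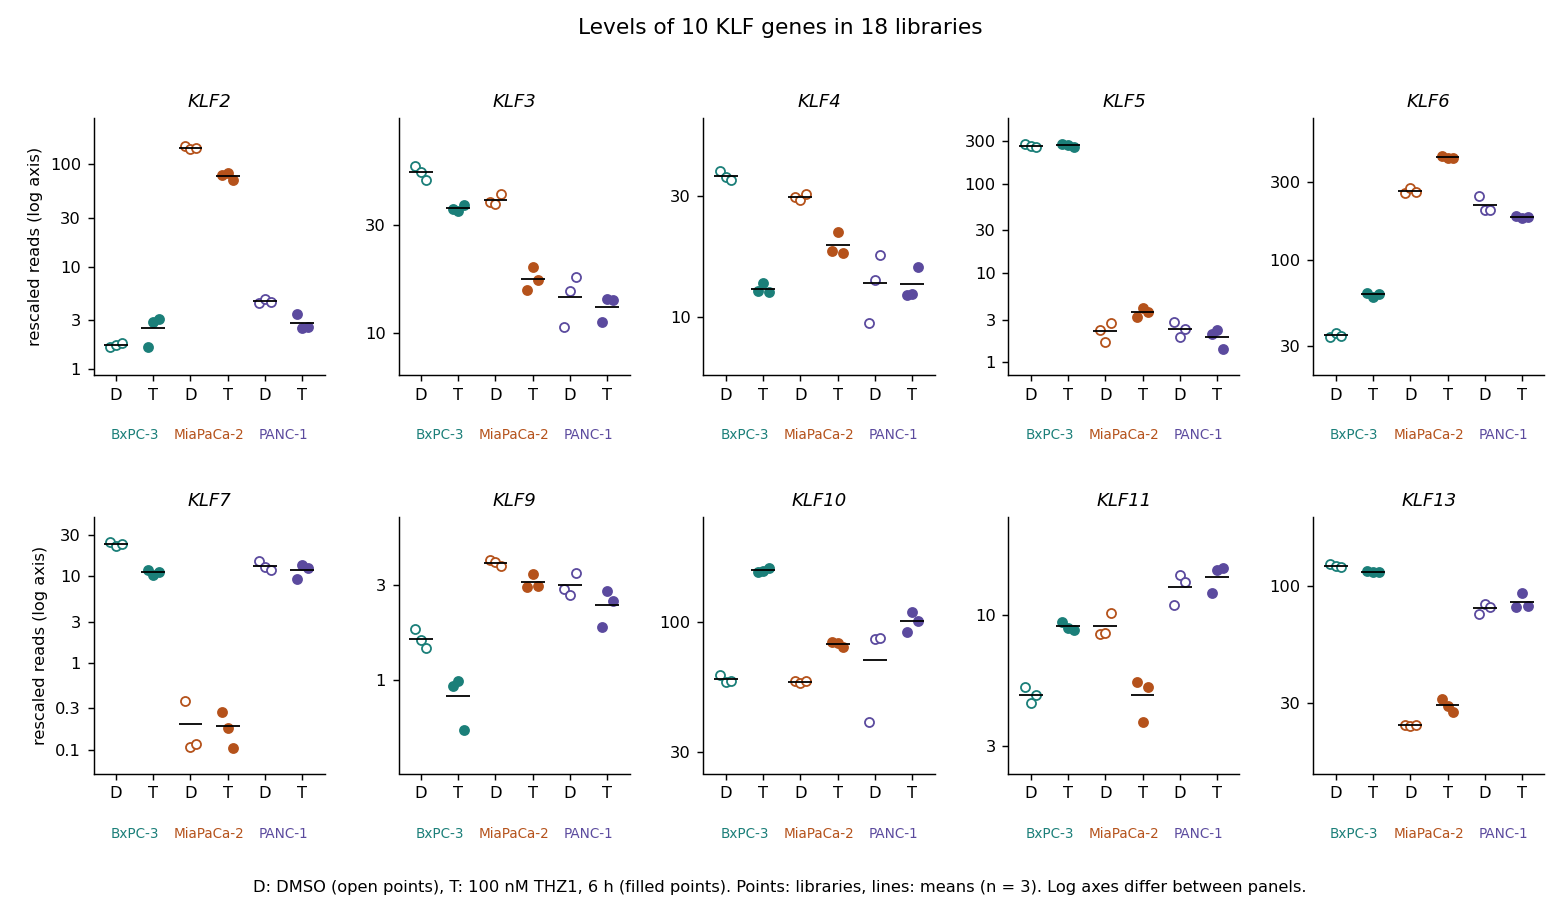
Rescaled reads of each KLF gene on log axes that differ between panels, by line and treatment, with open points for DMSO, filled points for 100 nM THZ1 and lines for means of 3 libraries. KLF5 stands near 265 in BxPC-3 against about 2.3 elsewhere, KLF2 near 145 in MiaPaCa-2, and the 3 BxPC-3 libraries with THZ1 lie above those with DMSO in KLF6, KLF10 and KLF11 and below them in KLF3, KLF4, KLF7 and KLF9.

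Per length of annotated exons, the leading transcript among the 10 members differed between the lines. This comparison between genes divides each level by the union of the gene's exons in GENCODE v29 and does not depend on how libraries are scaled. In BxPC-3 with DMSO, KLF5 made up 54.8% ± 0.10 of the per-length sum of the 10 members (SD, n = 3), ahead of KLF10 (11.8% ± 0.15) and KLF13 (10.5% ± 0.21). In MiaPaCa-2 with DMSO, KLF2 made up 48.1% ± 1.1 and KLF6 28.7% ± 1.3. In PANC-1 with DMSO, KLF6 made up 47.4% ± 8.8 and KLF10 23.1% ± 7.7, a wide spread in which replicate 1 held 57.5% and 14.2%. KLF16, not among the 10, averaged 18.1 rescaled reads per kilobase in BxPC-3 with DMSO, above KLF10 (14.7) and KLF13 (13.1). In PANC-1 with DMSO it averaged 28.3 ± 10.1, between KLF6 (35.4 ± 4.2) and KLF10 (17.6 ± 6.7).

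With THZ1, the share of KLF10 in BxPC-3 was 27.7% ± 0.72, against 11.8% with DMSO, and that of KLF5 was 47.5% ± 1.1. In MiaPaCa-2 the order of the leading members per exon length was exchanged. KLF6 made up 48.8% ± 1.2 with THZ1 and KLF2 27.0% ± 1.2, and the 3 libraries of each treatment did not overlap for either gene. The exchange rests on the exon unions, 2018 bases for KLF2 and 6139 for KLF6. In mean rescaled reads, KLF6 exceeded KLF2 there with DMSO (263 against 145) and with THZ1 (422 against 76.8). In PANC-1 with THZ1, KLF6 made up 39.0% ± 2.2 and KLF10 32.9% ± 1.7, again without overlap with the DMSO libraries. Among the 10 members, KLF6, KLF10 and KLF13 led there in that order with either treatment. KLF16, not among them, averaged 22.6 rescaled reads per kilobase with THZ1, between KLF10 (25.2) and KLF13 (9.03).

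**Figure D2:**
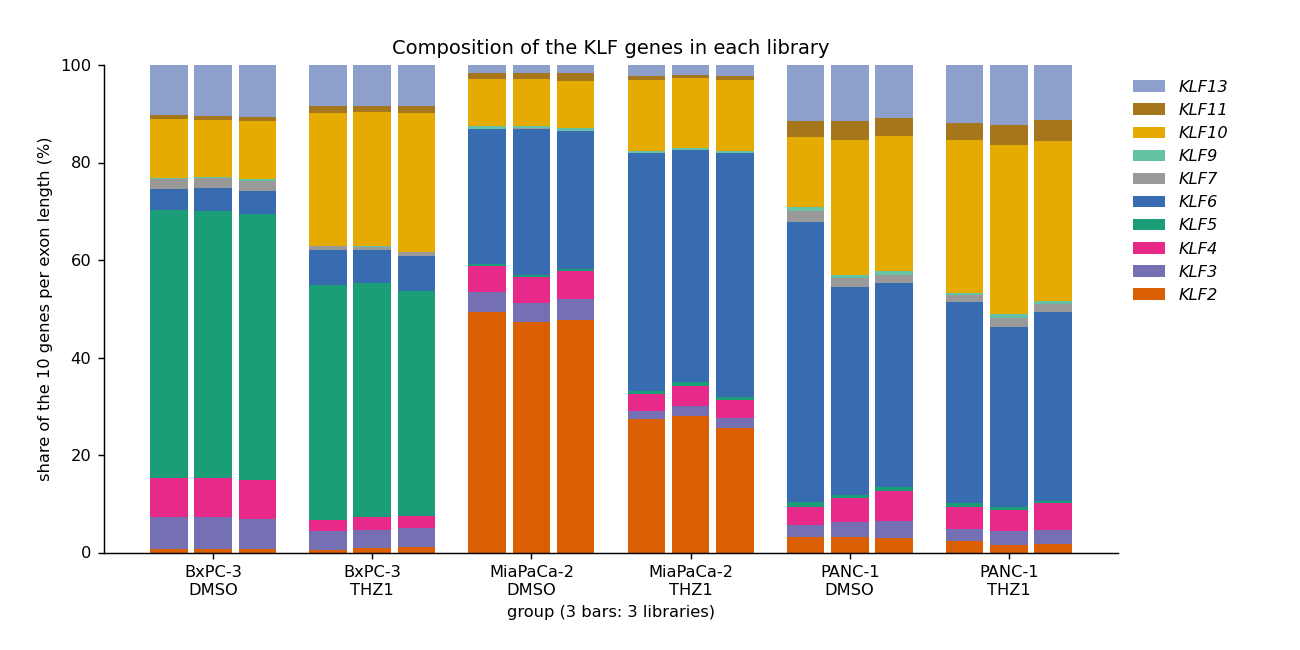
Share of each KLF gene, in percent, of the per-exon-length sum of the 10 genes, with 1 stacked bar for each of the 18 libraries. KLF5 fills about 55% in BxPC-3 with DMSO, KLF2 falls from 48.1% to 27.0% and KLF6 grows from 28.7% to 48.8% between the treatments in MiaPaCa-2, and the first PANC-1 bar departs from its neighbours.

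THZ1 changed 8 of the 10 members in BxPC-3 and 8 in MiaPaCa-2, in both directions, and none passed the test in PANC-1. In BxPC-3, where 59.0% of all genes tested were called, KLF2, KLF6, KLF10 and KLF11 rose and KLF3, KLF4, KLF7 and KLF9 fell. In MiaPaCa-2, where 56.3% were called, KLF5, KLF6, KLF10 and KLF13 rose and KLF2, KLF3, KLF4 and KLF11 fell. Split by direction, 4 of 10 rose in BxPC-3 against 40.0% of all genes and 4 fell against 18.9%, and in MiaPaCa-2 4 rose against 36.5% and 4 fell against 19.8%. The median difference of the members was -0.03 in BxPC-3 and -0.13 in MiaPaCa-2, both below the medians over all genes given above. On the ERCC scale no member was called higher in either line, where 1.28% and 1.36% of all genes were, and 7 fell in BxPC-3 and 8 in MiaPaCa-2, where 59.1% and 73.9% of all genes did. In PANC-1, 2 members fell on that scale, where 18.4% of all genes did. With libraries scaled to equal sums, 1 member rose in BxPC-3 and 0 in MiaPaCa-2, where 9.24% and 9.37% of all genes rose. With TMM scaling, 1 member rose in MiaPaCa-2, where 24.8% of all genes did. Libraries of the treatments did not overlap for 8 members in BxPC-3, 9 in MiaPaCa-2 and 3 in PANC-1, where 76.1%, 73.8% and 17.1% of all genes tested did not overlap.

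KLF4 fell in BxPC-3 and in MiaPaCa-2. In BxPC-3 it read 37.9, 35.6 and 34.9 with DMSO and 12.7, 13.7 and 12.5 with THZ1. Every treated library lay far below every control library. In MiaPaCa-2 the values were 29.9, 28.9 and 30.7 with DMSO and 18.2, 21.6 and 17.9 with THZ1. The difference was -1.41 in BxPC-3 (SE 0.16, adjusted p = 1.1e-06) and -0.61 in MiaPaCa-2 (SE 0.16, adjusted p = 0.0035), and on the ERCC scale it was -2.51 and -1.85. Both decreases were called in every alternative run.

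KLF3 followed the same direction with the larger change in MiaPaCa-2. It read 54.5, 51.5 and 47.4 with DMSO and 35.3, 34.4 and 36.8 with THZ1 in BxPC-3. In MiaPaCa-2 it read 37.8, 37.2 and 41.2 with DMSO and 15.4, 19.6 and 17.2 with THZ1. The groups did not overlap in either line. The difference was -0.51 in BxPC-3 (SE 0.14, adjusted p = 0.0059) and -1.12 in MiaPaCa-2 (SE 0.14, adjusted p = 6.7e-06). With ERCC scaling these were -1.67 and -2.36, and both decreases were called in every alternative run.

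KLF7 and KLF9 fell in BxPC-3. KLF7 read 24.8, 22.4 and 23.9 with DMSO and 11.8, 10.4 and 11.2 with THZ1, a difference of -1.02 (SE 0.14, adjusted p = 9.1e-06). In MiaPaCa-2, where KLF7 was at 1 to 9 reads per library, a change was not detectable at this depth. KLF9 read 1.80, 1.59 and 1.44 with DMSO and 0.935, 0.987 and 0.565 with THZ1, which rest on 25 to 38 and 7 to 12 reads. Its difference was -0.52 (SE 0.14, adjusted p = 0.0041), and that in MiaPaCa-2 was -0.25 (SE 0.14, adjusted p = 0.14) on the deposited scale and -1.25 (adjusted p = 1e-05) on the ERCC scale. The BxPC-3 decrease of KLF7 was called in every alternative run, and that of KLF9 in all but the filter of 5 and the filter in the deposited unit, which removed the gene.

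KLF10 had the largest increase among the members in BxPC-3. It read 61.6, 57.6 and 57.8 with DMSO and 159.7, 160.3 and 165 with THZ1. Every treated library lay far above every control library. The difference was 1.44 (SE 0.19, adjusted p = 9.2e-06). It was positive on all 6 scales, but on the ERCC scale it was 0.26 and was not called (adjusted p = 0.44). Relative to the median gene of the same fit, KLF10 stood higher by 1.19, and by 0.90 to 1.21 over the 6 scales. In MiaPaCa-2 the gene read 57.9, 57.0 and 58.3 with DMSO and 83.2, 82.1 and 79.5 with THZ1. That smaller difference of 0.49 (SE 0.19, adjusted p = 0.041) was not called in edgeR's quasi-likelihood test on the reads (0.28, adjusted p = 0.33), and was -0.79 on the ERCC scale (adjusted p = 0.015). Leaving out any 1 of the 6 MiaPaCa-2 or 6 BxPC-3 libraries, or THZ1 replicate 3 of PANC-1, also ended this call, with adjusted p from 0.050 to 0.091. Without PANC-1 DMSO replicate 1, which enters the shared estimate of the spread, the same 0.49 had an adjusted p of 1.1e-07.

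KLF6 rose in both lines on the deposited scale, without overlap between treatments. It read 34.0, 36.3 and 34.4 with DMSO and 63.6, 60.0 and 62.6 with THZ1 in BxPC-3. In MiaPaCa-2 it read 255, 275 and 258 with DMSO and 428, 421 and 418 with THZ1. The difference was 0.81 in BxPC-3 (SE 0.08, adjusted p = 1.5e-07) and 0.68 in MiaPaCa-2 (SE 0.08, adjusted p = 1.4e-06). With libraries scaled to equal sums these were 0.10 and 0.04, neither called, and on the ERCC scale they were -0.35 (adjusted p = 0.054) and -0.61 (adjusted p = 0.0015). Relative to the median gene, KLF6 was higher on all 6 scales, by 0.29 to 0.59 in BxPC-3 and by 0.24 to 0.51 in MiaPaCa-2.

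KLF11 moved in opposite directions on the deposited scale. In BxPC-3 it read 5.17, 4.45 and 4.78 with DMSO and 9.35, 8.88 and 8.72 with THZ1. In MiaPaCa-2 it read 8.33, 8.46 and 10.1 with DMSO and 5.40, 3.75 and 5.16 with THZ1. The treatments did not overlap in either line, and the line that was higher at rest became the lower one with THZ1. The difference was 0.78 in BxPC-3 (SE 0.14, adjusted p = 0.00013) and -0.80 in MiaPaCa-2 (SE 0.14, adjusted p = 0.00012). The MiaPaCa-2 decrease was called in every alternative that tested the gene, which the filter in the deposited unit removed. The BxPC-3 increase was 0.15 with equal sums (adjusted p = 0.48) and -0.24 on the ERCC scale (adjusted p = 0.32).

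The KLF2 response also differed between the lines. In MiaPaCa-2 it read 149, 142 and 142 with DMSO and 78.9, 81.3 and 70.3 with THZ1. This difference of -0.91 (SE 0.14, adjusted p = 5e-05) was called in every alternative run. In BxPC-3 it read 1.66, 1.71 and 1.79 with DMSO and 1.64, 2.88 and 3.07 with THZ1, from 21 to 38 reads per library, and the groups overlapped. That call (0.35, SE 0.14, adjusted p = 0.043) was lost with TMM scaling (0.09, adjusted p = 0.65), with edgeR's quasi-likelihood test (0.23, adjusted p = 0.36) and under several leave-outs, with THZ1 replicate 3 left out giving 0.23 (adjusted p = 0.20). With ERCC scaling the value was -0.42 (adjusted p = 0.039).

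KLF5 and KLF13 rose in MiaPaCa-2 on the deposited scale. KLF5, abundant in BxPC-3, differed there by 0.02 with a 95% interval of -0.28 to 0.32, and by -1.17 on the ERCC scale (adjusted p = 3.7e-05). In MiaPaCa-2 it read 2.31, 1.67 and 2.77 with DMSO and 3.21, 4.02 and 3.68 with THZ1, from 31 to 57 reads, a difference of 0.52 (SE 0.14, adjusted p = 0.0049). KLF13 in MiaPaCa-2 read 24.1, 23.8 and 24.0 with DMSO and 31.5, 29.1 and 27.6 with THZ1, a difference of 0.28 (SE 0.07, adjusted p = 0.0038). In BxPC-3 the KLF13 difference was -0.09 (SE 0.07, adjusted p = 0.32) on the deposited scale. A decrease of KLF13 was called there on the ERCC scale (-1.27, adjusted p = 3.6e-06), with equal sums (-0.81, adjusted p = 7.8e-06), with DESeq2 factors (-0.37, adjusted p = 0.026), with TMM (-0.47, adjusted p = 0.0031) and in edgeR's test (-0.41, adjusted p = 0.0047). Neither MiaPaCa-2 increase passed with TMM scaling, where KLF5 gave 0.34 (adjusted p = 0.050) and KLF13 0.05 (adjusted p = 0.75). On the ERCC scale KLF5 gave -0.43 there (adjusted p = 0.056) and KLF13 fell (-0.97, adjusted p = 6.8e-05). KLF13 also fell in MiaPaCa-2 with equal sums (-0.34, adjusted p = 0.014). Relative to the median gene, KLF13 in MiaPaCa-2 gave -0.12 to 0.10 over the 6 scales.

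**Figure D3:**
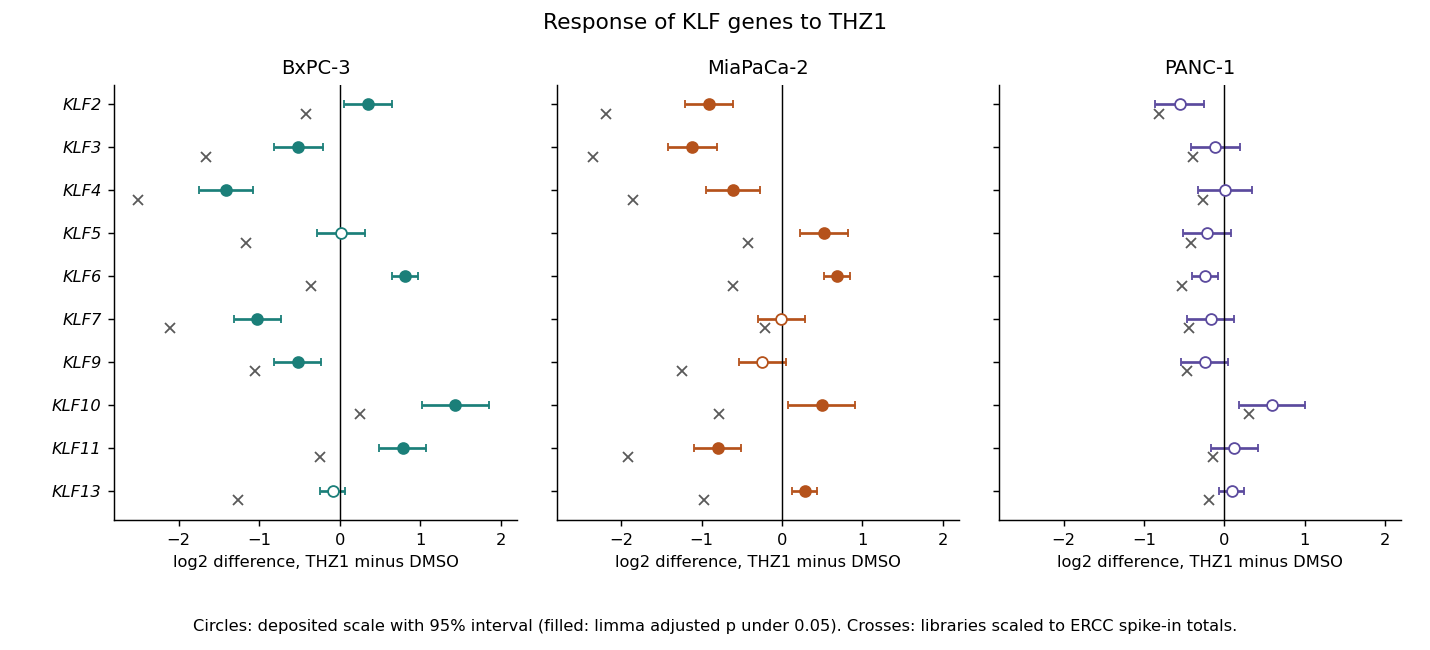
Log2 difference between THZ1 and DMSO for each KLF gene in each line, with 95% intervals on the deposited scale (circles, filled where the limma adjusted p was under 0.05) and the value on the ERCC scale (crosses). KLF4 lies at -1.41 and KLF10 at 1.44 in BxPC-3, KLF11 lies on opposite sides of 0 in BxPC-3 and MiaPaCa-2, and each cross lies to the left of its circle.

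The response itself was compared between lines by an interaction contrast in the same fit. Between MiaPaCa-2 and BxPC-3, 6 of 10 members differed, where 13.8% of all genes did. On the deposited scale, opposite called directions in these lines were found for 1.29% of all genes and for 2 members, KLF2 and KLF11. Neither BxPC-3 increase was called with equal sums or on the ERCC scale. With ERCC scaling KLF2 fell in BxPC-3 (-0.42, adjusted p = 0.039) and KLF11 gave -0.24 (adjusted p = 0.32). The KLF11 response was -1.58 lower in MiaPaCa-2 (SE 0.19, adjusted p = 6.2e-05), and the KLF2 response -1.26 lower (SE 0.20, adjusted p = 0.00056). Both differences were called on all 6 scales and in every alternative that tested them. KLF11 was not tested with the filter in the deposited unit. KLF4 fell less in MiaPaCa-2, by a difference of 0.80 (SE 0.22, adjusted p = 0.024), and KLF10 rose less, by -0.95 (SE 0.28, adjusted p = 0.030). Neither of these was called on the ERCC scale (adjusted p = 0.26 and 0.11). The KLF4 difference was also not called with equal sums (0.87, adjusted p = 0.056) or DESeq2 factors (0.89, adjusted p = 0.075). The KLF4 call was also lost without replicate 1 or 3 of BxPC-3 with THZ1, replicate 1 of BxPC-3 with DMSO, or replicate 2 of MiaPaCa-2 with either treatment (adjusted p from 0.052 to 0.066). The KLF10 call was lost without any 1 of the 12 BxPC-3 and MiaPaCa-2 libraries (adjusted p from 0.050 to 0.065) and in edgeR's test (adjusted p = 0.11). It was also lost with equal sums, DESeq2 factors and TMM (adjusted p from 0.13 to 0.18), while without PANC-1 DMSO replicate 1 its adjusted p was 1.5e-08. KLF13 differed by 0.37 (SE 0.10, adjusted p = 0.025), which was also called with TMM scaling (adjusted p = 0.048) but not with any of the other 4 scalings or without most single libraries of these lines (adjusted p from 0.050 to 0.071). The KLF7 difference of 1.02 (SE 0.20, adjusted p = 0.0023) sets a decrease in BxPC-3 against a gene at 1 to 9 reads in MiaPaCa-2, and edgeR's test of it gave an adjusted p of 0.45. KLF3, with -0.61 (adjusted p = 0.060), KLF5, with 0.50 (adjusted p = 0.11), and KLF6, with -0.13 (95% interval -0.36 to 0.10), did not pass. KLF3 and KLF5 did pass without PANC-1 DMSO replicate 1, with adjusted p of 0.0013 and 0.025, and KLF3 also without PANC-1 DMSO replicate 3 (adjusted p = 0.030). KLF5 was also called with equal sums (0.75, adjusted p = 0.017), DESeq2 factors (0.64, adjusted p = 0.042) and TMM (0.70, adjusted p = 0.023).

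**Figure D4:**
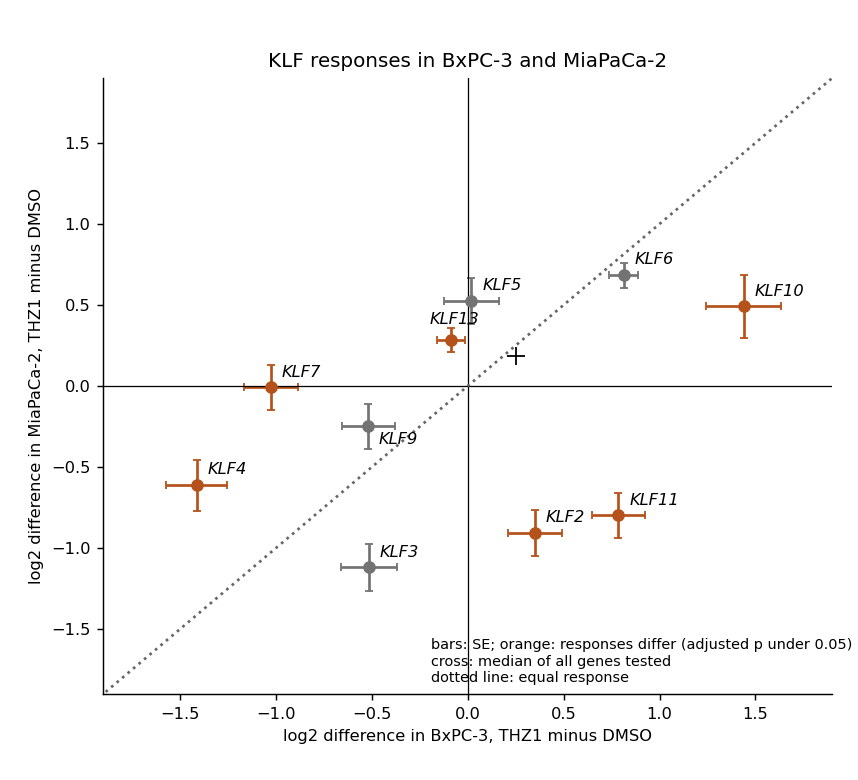
Log2 difference between THZ1 and DMSO in MiaPaCa-2 against that in BxPC-3 for the KLF genes, deposited scale, with SE bars. The dotted line marks equal response, the cross the median of all genes tested, and orange the members whose responses differed, and KLF2 and KLF11 lie in the quadrant of increase in BxPC-3 and decrease in MiaPaCa-2.

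In PANC-1 no member passed the test, and 0.501% of all genes did. KLF10, KLF2 and KLF6 are described because they had the lowest unadjusted limma p of the members in PANC-1. The share of all genes at a like unadjusted p was not counted, so no excess can be read from them. KLF10 read 39.8, 85.3 and 86.5 with DMSO and 91.0, 110.0 and 101 with THZ1, with every treated library above every control. Its difference was 0.59 (SE 0.19, adjusted p = 0.13), and 0.22 (adjusted p = 0.041) without DMSO replicate 1. KLF2 read 4.42, 4.85 and 4.56 with DMSO and 3.46, 2.51 and 2.55 with THZ1, again without overlap. The KLF2 difference was -0.56 (SE 0.14, adjusted p = 0.078), and -0.58 (adjusted p = 0.019) without that library. KLF6 read 247, 203 and 202 with DMSO and 185, 179.9 and 183 with THZ1, a difference of -0.24 (SE 0.08, adjusted p = 0.12), and of -0.15 (adjusted p = 0.090) without it. Without DMSO replicate 1, 1 member rose and 1 fell, where 5.50% of all genes rose and 1.31% fell. Leaving out another control instead also changed the calls. Without DMSO replicate 3, KLF10 rose and KLF2 and KLF6 fell (adjusted p = 0.028, 0.032 and 0.030). In that fit 1603 of the 15354 genes tested rose and 1731 fell. Without DMSO replicate 2, KLF10 rose (adjusted p = 0.043), where 511 of all genes rose and 344 fell.

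The PANC-1 response differed from that of BxPC-3 in 6 members, where 42.7% of all genes did, and from that of MiaPaCa-2 in 5, where 38.9% did. KLF4 differed from both, by 1.42 against BxPC-3 (SE 0.22, adjusted p = 0.00013) and by 0.62 against MiaPaCa-2 (SE 0.22, adjusted p = 0.037). Its PANC-1 levels were 9.47, 13.9 and 17.6 with DMSO and 12.2, 12.3 and 15.8 with THZ1, which overlap. Without PANC-1 DMSO replicate 1 the 2 KLF4 differences were 1.20 and 0.40, both called. The difference from MiaPaCa-2 lost its call in 6 of 18 leave-outs (adjusted p from 0.057 to 0.10), those of each MiaPaCa-2 DMSO library, THZ1 replicate 1 or 3 of MiaPaCa-2 and THZ1 replicate 3 of PANC-1, and when only these groups were fitted (adjusted p = 0.096). The KLF6 response was lower in PANC-1 by -1.06 against BxPC-3 (SE 0.11, adjusted p = 2.9e-06) and by -0.93 against MiaPaCa-2 (SE 0.11, adjusted p = 1.7e-05), and on the ERCC scale the 2 values were -0.17 and 0.08. KLF7 differed from BxPC-3 by 0.85 (adjusted p = 0.0025) and KLF3 from MiaPaCa-2 by 1.00 (adjusted p = 0.0013), both called on all 6 scales.

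Of the wider KLF and SP families, 2 more KLF genes and 5 SP genes were tested. KLF12, a CtBP-binding repressor like KLF3, rose in BxPC-3 by 1.16 (SE 0.19, adjusted p = 6.1e-05), from 8.96, 7.56 and 7.14 with DMSO to 19.9, 17.2 and 19.3 with THZ1. This is the reverse of KLF3 in that line on the deposited scale. KLF12 gave 0.06 on the ERCC scale, where KLF3 fell. KLF16 also rose in BxPC-3 on the deposited scale (0.47, adjusted p = 0.016), but it was not called with equal sums, DESeq2 factors or TMM and fell on the ERCC scale (-0.70, adjusted p = 0.00053). Neither gene passed in MiaPaCa-2 or PANC-1 on the deposited scale. With ERCC scaling both fell in MiaPaCa-2 (KLF12 -0.60, KLF16 -1.03), and KLF16 fell in PANC-1 (-0.55, adjusted p = 0.023). Of the SP genes, which compete for the same GC-rich sites, 1 rose and 3 fell in BxPC-3, and none rose and 3 fell in MiaPaCa-2. SP1, the founding member, fell by 0.61 in BxPC-3 (adjusted p = 0.00069) and by 1.08 in MiaPaCa-2 (adjusted p = 3.1e-06). SP4 fell by 1.27 and 0.82 (adjusted p = 0.0002 and 0.0071). Their differences were negative on all 6 scales in both lines.

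For the lists of associated genes, the shares to read the counts against are those of all genes: 40.0% rose and 18.9% fell in BxPC-3 and 36.5% rose and 19.8% fell in MiaPaCa-2, and on the ERCC scale 59.1% and 73.9% fell. Among 14 corepressors and coactivators that KLF proteins recruit, 5 rose and 2 fell in BxPC-3, and 6 rose and 3 fell in MiaPaCa-2. With ERCC scaling, none rose, and 10 fell in BxPC-3 and 12 in MiaPaCa-2. SIN3A, the scaffold bound by KLF9, KLF10, KLF11 and KLF13, read 103, 104 and 103 with DMSO and 48.0, 45.1 and 50.5 with THZ1 in BxPC-3, a difference of -1.09 (SE 0.08, adjusted p = 1.7e-08). In MiaPaCa-2 it was -0.60 (SE 0.08, adjusted p = 1.7e-05), and it was negative on all 6 scales in both lines. The deacetylase gene HDAC1 rose by 1.26 in BxPC-3 (adjusted p = 6.5e-10) and 1.10 in MiaPaCa-2 (adjusted p = 4e-09), and gave 0.07 and -0.20 on the ERCC scale. The scaffold and the enzyme it carries thus moved in opposite directions on the deposited scale.

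Of 16 genes known to act upstream of KLF transcription, 5 rose and 2 fell in BxPC-3, and 8 rose and 3 fell in MiaPaCa-2. With ERCC scaling, 0 rose and 13 fell in BxPC-3 and 0 rose and 15 fell in MiaPaCa-2, and with DESeq2 factors 0 rose and 4 fell in BxPC-3. MAPK7, which encodes ERK5, the kinase that induces KLF2 and KLF4 through MEF2 factors, fell by 1.81 in BxPC-3 (SE 0.19, adjusted p = 5e-07). It read 15.4, 17.1 and 17.0 there with DMSO and 4.05, 4.36 and 3.63 with THZ1. In MiaPaCa-2 it fell by 1.41 (SE 0.19, adjusted p = 9.2e-06), and it was negative on all 6 scales in both lines. Of 9 ubiquitin ligases that act on KLF proteins, 5 rose and 1 fell in BxPC-3, and 3 rose and 1 fell in MiaPaCa-2. On the ERCC scale 6 of these fell in BxPC-3 and all 9 in MiaPaCa-2, and none rose. FBXW7, whose product marks KLF5 for degradation, rose by 1.13 in BxPC-3 (adjusted p = 3.9e-08) and 0.60 in MiaPaCa-2 (adjusted p = 4.8e-05), and gave -0.02 and -0.63 on the ERCC scale.

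Of 22 genes known as KLF targets, 12 rose and 4 fell in BxPC-3, with a median of 0.41, and 5 rose and 2 fell in MiaPaCa-2, with a median of 0.06. With ERCC scaling, 1 rose and 13 fell in BxPC-3 (median -0.57), and 1 rose and 16 fell in MiaPaCa-2 (median -0.87). LGALS3, which encodes galectin-3, rose by 1.20 and 0.98 (adjusted p = 3.2e-09 and 4.5e-08), and LDHA, a glycolytic enzyme, by 0.85 and 1.05 (adjusted p = 3.1e-05 and 3.8e-06), but on the ERCC scale LGALS3 gave 0.02 and -0.30 and LDHA -0.34 and -0.24. CDKN1C, a cell-cycle inhibitor, was positive on all 6 scales in both lines. It read 0.427, 0.122 and 0.230 with DMSO and 1.40, 1.81 and 1.53 with THZ1 in BxPC-3, and rose by 1.04 there (adjusted p = 0.00015) and by 1.58 in MiaPaCa-2 (adjusted p = 2.3e-06). All 3 BxPC-3 controls lay under the filter value of 1, near the floor of the measured range, so depth limits the BxPC-3 comparison. On the deposited scale no gene of these 6 lists was called in PANC-1. With ERCC scaling, 1 of the further KLF genes, 1 SP gene, 3 corepressors or coactivators, 4 upstream genes and 2 targets fell there, and with equal medians 1 corepressor or coactivator and 1 ligase rose.

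For each member, the gene with the most similar profile over the 18 libraries was sought among 7195 genes with a mean of at least 20 rescaled reads. Most of these profiles follow the differences between lines, which the libraries share. KLF5 was closest to ALDH3A1 (Pearson r = 0.996), KLF6 to TUBB3 (0.994), KLF13 to GRK5 (0.992), KLF7 to FOXQ1 (0.990) and KLF2 to DDR2 (0.987). The members with smaller line differences had KLF10 closest to FGFR1OP2 (0.980), KLF9 to BAZ1B (0.977), KLF3 to DCAF10 (0.963), KLF4 to SMEK1 (0.947) and KLF11 to TRIO (0.926). DDR2, a collagen receptor, shared the MiaPaCa-2 restriction of KLF2, at 106, 109 and 108 there with DMSO against 0.569 to 0.691 in BxPC-3. With THZ1 it read 116, 137 and 131 in MiaPaCa-2, where KLF2 had fallen.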

How the data were processed

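Polyadenylated RNA from 18 libraries was measured after stranded library preparation with ERCC spike-in RNA, per the labels' protocols. Alignment used STAR and the hg19 build, per the submitters' processing notes. The counting tool, its use of strand, the STAR version and the normalization are not stated in any label or header used. The deposited values are a signal per gene and library. In each library they are whole reads divided by 1 whole number, to within 0.001 read for 100% of values, and these reads were used as counts in the count tests. The authors' deposited log2 columns (their mean log2 ratio over the lines, its SD and a log2 mean level, per the file headers) were not used for results. The design had assumed either counts or a normalized unit, and the test for normalized values was used. The 38 ERCC features were kept apart, and 22 features with date-like names were kept without a gene name.

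Values were multiplied by 1 constant (17.7). Genes with at least 1 in at least 3 libraries were fitted on log2(value + 1), a scale that understates changes of low genes, with limma 3.58.1 in R 4.3.3 (6 group means, 12 residual degrees of freedom, mean-variance trend). Benjamini-Hochberg adjustment ran over 15354 genes at 0.05, two-sided. The code was tested on simulated data. Alternatives were scaling (ERCC, equal sums, equal medians, DESeq2 factors, TMM), pseudocounts, filters, no trend, a replicate block, fewer groups, edgeR 4.0.16, DESeq2 1.42.0 and each library left out. The 10 genes were named in full. Genes of other lists were named where called with at least a 2-fold change in a line, up to 3 in each direction. The members and lists were chosen with earlier results of these data known, and no list is independent support. Nothing in the labels beyond "biological triplicates" says what the replicates share.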

Additional observations from a re-analysis of the deposited data

Results flagged for a closer look

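The results below were singled out because the response to THZ1 differed between 2 lines in limma's interaction contrast, as log2 differences. Between MiaPaCa-2 and BxPC-3 they were KLF11 (-1.58), KLF2 (-1.26), KLF10 (-0.95), KLF13 (0.37), KLF4 (0.80) and KLF7 (1.02). Between PANC-1 and BxPC-3 they were KLF6 (-1.06), KLF2 (-0.91), KLF10 (-0.85), KLF11 (-0.66), KLF7 (0.85) and KLF4 (1.42). Between PANC-1 and MiaPaCa-2 they were KLF6 (-0.93), KLF5 (-0.74), KLF4 (0.62), KLF11 (0.92) and KLF3 (1.00). On the deposited scale, ERCC totals and endogenous totals also differed more between treatments in BxPC-3 and MiaPaCa-2 than in PANC-1. Their part in these differences was not tested beyond the scaling given below. Of the differences that involve PANC-1, KLF4 and KLF7 against BxPC-3 and KLF3, KLF4 and KLF11 against MiaPaCa-2 were called on all 6 scales.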

How the results depend on the processing

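The scaling of libraries changed the results most, and the cause was not tested. On the ERCC scale, members called higher were 0 and called lower 7 in BxPC-3, 0 and 8 in MiaPaCa-2, and 2 lower in PANC-1, and the response differed between MiaPaCa-2 and BxPC-3 in 3. With equal sums, 1 member was called higher in BxPC-3 and 0 in MiaPaCa-2. Members called higher in MiaPaCa-2 were 2 with DESeq2 factors, 1 with TMM, 2 with edgeR and 2 with DESeq2, which also called 1 lower in PANC-1. Fitting only the groups compared gave 3 response differences between PANC-1 and MiaPaCa-2. No share of all genes was counted for response differences outside the main fit. Whether such counts moved with those of all genes was therefore not tested. With the pseudocount and filter in the deposited unit, chosen after seeing the data, 2 members rose in BxPC-3, and KLF9 and KLF11 were not tested. Leaving out 1 library gave 0 to 1 members higher and 0 to 2 lower in PANC-1, and 3 to 8 response differences between MiaPaCa-2 and BxPC-3, where leaving out BxPC-3 DMSO replicate 1, BxPC-3 THZ1 replicate 3 or MiaPaCa-2 DMSO replicate 2 moved the count by over 1.5 times.

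Signs reversed on the ERCC scale in BxPC-3 for KLF2 (-0.42), KLF5 (-1.17), KLF6 (-0.35) and KLF11 (-0.24), in MiaPaCa-2 for KLF5 (-0.43), KLF6 (-0.61), KLF10 (-0.79) and KLF13 (-0.97), and in PANC-1 for KLF4 (-0.26), KLF11 (-0.14) and KLF13 (-0.19). Response differences reversed there for KLF5 (0.0082) and KLF6 (0.081) between PANC-1 and MiaPaCa-2, and for KLF10 (0.05) and KLF11 (0.10) between PANC-1 and BxPC-3. DMSO differences reversed there for KLF4 (0.10) and KLF10 (0.34) between MiaPaCa-2 and BxPC-3, and for KLF5 (-0.16) and KLF10 (-0.093) between PANC-1 and MiaPaCa-2. Equal sums reversed KLF2 (-0.14) and KLF5 (-0.71) in BxPC-3 and KLF10 (-0.15) and KLF13 (-0.34) in MiaPaCa-2. Equal medians reversed KLF7 in MiaPaCa-2 (0.0025) and KLF13 in BxPC-3 (0.031). KLF5 in BxPC-3 was -0.27 with DESeq2 factors, -0.37 with TMM, -0.30 with edgeR and -0.25 with DESeq2. DESeq2 factors also gave KLF3 in PANC-1 as 0.011 and the KLF10 DMSO difference of PANC-1 from BxPC-3 as -0.040, which TMM gave as -0.0017. The KLF6 response of MiaPaCa-2 minus BxPC-3 was 0.0084 with TMM and 0.049 with the deposited unit. KLF4 in PANC-1 was -0.016 with edgeR, -0.0047 with DESeq2 and -0.0041 with the deposited unit. Leaving out 1 library moved THZ1 differences that were not called across 0, from -0.31 to 0.030 for KLF3 and -0.22 to 0.20 for KLF4 in PANC-1, from -0.0011 to 0.047 for KLF5 in BxPC-3 and from -0.061 to 0.090 for KLF7 in MiaPaCa-2. The same held for DMSO differences of KLF5 between PANC-1 and MiaPaCa-2 (-0.070 to 0.18), of KLF10 between MiaPaCa-2 and BxPC-3 (-0.046 to 0.00077) and of KLF10 between PANC-1 and BxPC-3 (-0.015 to 0.54).

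Over all genes, calls higher and lower were 6147 and 2908 in BxPC-3, 5598 and 3042 in MiaPaCa-2 and 42 and 35 in PANC-1. On the ERCC scale they were 199 and 9164, 211 and 11452, and 5 and 2856, with equal sums 1415 and 6605, 1435 and 6616, and 13 and 161, with DESeq2 factors 4049 and 4094, 4035 and 3798, and 6 and 15, and with TMM 3429 and 4578, 3794 and 4069, and 7 and 15. edgeR on the recovered reads called 4111 and 4391, 4170 and 4049, and 7 and 12, and DESeq2 4484 and 4216, 4375 and 3999, and 353 and 338. PANC-1 calls were 844 and 201 without its DMSO replicate 1, 511 and 344 without replicate 2 and 1603 and 1731 without replicate 3. The replicate block kept the side and direction of 78 of 80 single values. It moved KLF2 in BxPC-3 to an adjusted p of 0.058 and the KLF3 response difference of MiaPaCa-2 from BxPC-3 to 0.048. Same-numbered libraries correlated from -0.03 to 0.45 in their deviations, and different-numbered ones from -0.51 to 0.50. The numbers were not taken as pairs, because the labels name no shared culture, day or batch. Depth limits KLF2 in BxPC-3 and PANC-1, KLF5 outside BxPC-3, KLF7 in MiaPaCa-2, KLF9 in all lines and KLF11 in MiaPaCa-2 with THZ1. Each of these had under 100 reads per library. KLF11 had 109, 73 and 83 reads in BxPC-3 with DMSO. PANC-1 DMSO replicate 1 held 67 reads of KLF3, 60 of KLF4, 95 of KLF7 and 69 of KLF11.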
